A study of Mus musculus with 9 samples.

Results

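The activin, inhibin and follistatin family was followed in endothelial cells (ECs) sorted from mouse lungs, in health, in lung metastasis and in lung metastasis under VEGF blockade. Its 9 genes are the subunit genes Inhba, Inhbb and Inha, the follistatins Fst and Fstl3, and the receptors Acvr1, Acvr1b, Acvr2a and Acvr2b. Every probe set of the array whose annotation names one of these genes alone was taken, which gave 18 probe sets for the 9 of 18193 measured genes, out of 34945 probe sets that name 1 gene and are no controls. A further probe set names Acvr2a together with Orc4 and was not a member. A total of 7 genes had several probe sets, and 13 of the 18 probe sets lay above the dimmest 40% of all probe sets by mean level. The 5 dimmer ones were both Inhba probe sets, the Inha probe set, Fst 1434458_at and Acvr2b 1440525_at.

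The study asked which changes of lung ECs during metastatic colonization depend on VEGF. All mice were NSG, an immunodeficient strain that lacks mature T, B and natural killer cells, and were 6 to 8 weeks old. In the metastasis IgG and metastasis B20 groups, human MDA-MB-231-LM2 breast cancer cells, a lung-metastatic derivative of the MDA-MB-231 line, had been given by tail vein, and lungs were taken on day 21. The B20 group received B20.4.1.1, an antibody against VEGFA, at 10 mg/kg in repeated intraperitoneal injections. The metastasis IgG group and the age-matched healthy IgG group, which carried no cancer cells, received control IgG. The metastasis mice were picked by the study for a similar metastatic load. Each group had 3 arrays labelled as biological replicates. ECs were sorted from the whole lung by CD31, and cells with GFP, CD140a, CD140b, CD326 (EpCAM), CD11b or CD45 were gated out, so that ECs near and far from metastases were measured together. The cancer line and the immunodeficient host limit the model to xenograft metastasis without adaptive immunity.

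Activins are secreted dimers of β subunits. Inhba encodes βA and Inhbb encodes βB, so that a βB pair is activin B. Inha encodes the α subunit, which joins a β subunit to form an inhibin, an activin antagonist. Activins bind the type II receptors ACVR2A or ACVR2B, which recruit a type I receptor such as ACVR1B, and the complex phosphorylates SMAD2 and SMAD3. ACVR1 is a type I receptor that signals mainly through SMAD1 and SMAD5 and can also be bound by activin with a type II receptor. Follistatin and FSTL3 hold activins outside the cell and block receptor binding. Activin A, the βA pair, is known from inflammation and tissue repair, and endothelial cells are among its sources.

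The overall level of the arrays had been equalized by the normalization of the deposited values. Correlations over all probe sets lay between 0.989 and 0.992 within groups, and the lowest between groups was 0.976. The labelled cell type was borne out by its markers. All 20 pan-endothelial genes lay above the dimmest 40%, and their mean level was 12.72 to 12.76 on the log2 scale in healthy IgG, 12.74 to 12.78 in metastasis IgG and 12.76 to 12.79 in metastasis B20. Genes of other cell types also moved. Of 22 macrophage and monocyte genes, 13 were higher in metastasis IgG than in healthy IgG and none lower, against 5.55% and 3.46% of all genes. The mean level of the list was 8.00 to 8.33 in healthy IgG, 8.91 to 9.06 in metastasis IgG and 8.92 to 9.25 in metastasis B20. Itgam (CD11b), Adgre1, C1qc, Ms4a7, Tyrobp, Ccr2, Aif1, Siglec1 and Cd163 of that list lay among the dimmest 40%. The other 13 lay above them, and some were bright. Lyz2 had means of 11.29, 12.43 and 12.45 in healthy IgG, metastasis IgG and metastasis B20, and Ctss of 10.49, 12.07 and 12.18. The mean level of 13 fibroblast genes was 9.14 to 10.01, 9.63 to 9.96 and 9.70 to 9.99 in the same order of groups, and that of 12 pericyte and smooth muscle genes 8.19 to 8.59, 8.60 to 8.78 and 8.59 to 8.76. The mean level of 16 epithelial genes was 8.58 to 9.35, 9.09 to 9.49 and 9.08 to 9.42. In metastasis IgG 3 of them were higher than in healthy IgG, against 5.55% of all genes. These were Sftpb by 0.92, Sftpd by 1.18 and Muc1 by 0.94 on the log2 scale. Among the gate's own genes, Epcam (CD326) and Itgam lay among the dimmest 40%, and Ptprc, Pdgfra and Pdgfrb did not. Ptprc (CD45) read 8.25, 8.82 and 9.24 on the healthy arrays and 9.25 to 9.51 on the 6 metastasis arrays. Pdgfrb (CD140b) read 7.34, 7.97 and 8.33 on the healthy arrays and 8.85 to 9.35 on the metastasis arrays, whereas Pdgfra (CD140a) overlapped, with 9.01, 9.88 and 10.44 on the healthy arrays and 8.80 to 9.65 on the others. The 3′ minus 5′ signal of the β-actin control probe sets, a sign of RNA integrity, was 0.609 to 0.62 on the log2 scale in healthy IgG, 0.488 to 0.555 in metastasis IgG and 0.526 to 0.62 in metastasis B20. The part of the other cell types and of RNA integrity in the results below was not tested. On arrays of sorted cells, fewer cells of a type and less RNA per cell cannot be told apart.

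The promoters of Inhbb and Inhba are shown because these β subunit genes were both higher in metastasis on at least 1 probe set and are described separately under B20 below. Each line holds the 250 bases before the start of a RefSeq transcript, on the strand of the gene. The Inhbb window is chr1:119422249-119422498, minus strand, directly before the gene (chr1:119415463-119422248). The Inhba window is chr13:16011601-16011850, plus strand. It lies inside the span that RefSeq gives the gene (chr13:16004256-16031609), so it precedes only one of its transcripts. The build is GRCm38.p6, and capitals mark the motifs found.
Inhbb: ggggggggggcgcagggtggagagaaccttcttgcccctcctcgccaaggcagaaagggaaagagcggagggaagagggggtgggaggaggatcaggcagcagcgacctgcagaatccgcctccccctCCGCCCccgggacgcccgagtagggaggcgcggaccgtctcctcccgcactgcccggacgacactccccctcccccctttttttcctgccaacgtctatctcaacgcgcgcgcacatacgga
Inhba: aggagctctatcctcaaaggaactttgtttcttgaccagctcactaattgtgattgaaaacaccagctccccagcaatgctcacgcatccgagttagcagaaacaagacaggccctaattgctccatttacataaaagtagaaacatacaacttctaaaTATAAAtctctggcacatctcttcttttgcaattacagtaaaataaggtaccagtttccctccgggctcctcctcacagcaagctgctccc

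The Inhbb window had a GC content of 68%, higher than 87.8% of the 32851 promoters in the table, and 21 CpG dinucleotides. The Inhba window had a GC content of 43.2%, higher than 19% of promoters, and 3 CpG. Both strands were searched for the SMAD box CAGAC, the E-box CACGTG, the AP-1 site TGACTCA, the hypoxia response core ACGTG, the GC box GGGCGG and the TATA box TATAAA, where every CACGTG also holds ACGTG. The capitals in Inhbb are a GC box, on the opposite strand, with its first base at position -122 from the start. Those in Inhba are a TATA box at position -91. None of the other motifs was found in either window. In all promoters of the table, 42.2% held CAGAC, 6.02% CACGTG, 4.46% TGACTCA, 16.6% ACGTG, 32.7% GGGCGG and 12.4% TATAAA. Of the 9 genes, 8 were in the table. The receptor promoters had GC contents of 85.6% for Acvr1, 78.8% for Acvr1b, 82% for Acvr2a and 72.8% for Acvr2b, Fstl3 had 71.2% and Inha 53.6%, against a median of 52.4% over all promoters.

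Both activin β subunit genes were higher in ECs of metastatic lungs than of healthy lungs, Inhbb on both of its probe sets (3.03-fold and 2.33-fold) and Inhba on 1 of 2 (3.08-fold), and follistatin was higher on 1 of its 2 probe sets. With IgG, 4 of the 18 probe sets passed the test as higher (limma, Benjamini-Hochberg adjusted p under 0.05 over all 34945 probe sets), where 4.43% of all probe sets did. Both Inhbb probe sets are among these 4, and the study had picked Inhbb for its induction in metastasis, so the count is not independent evidence. None of the 18 passed as lower, where 2.98% of all did, while 10 of the 18 had an unadjusted limma p under 0.05, against 21.9% of all. The groups did not overlap for 9 of the 18, of which 7 were higher and 2 lower in metastasis, against 27.5% of all probe sets in either direction. The median change of the 18 was 0.11 on the log2 scale, and that of all probe sets -0.01.

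Inhbb, the activin B subunit gene, was measured by 2 probe sets that moved together. On 1426858_at its log2 level was 11.07, 10.92 and 11.12 on the healthy IgG arrays, 12.59, 12.79 and 12.52 on the metastasis IgG arrays and 12.65, 12.81 and 12.76 on the metastasis B20 arrays. Every metastasis array, with either antibody, lay above every healthy array, and the metastasis groups overlapped each other. The change from healthy IgG to metastasis IgG was 1.60 ± 0.10 (SE, log2; n = 3 and 3 arrays; limma adjusted p = 0.000132), a 3.03-fold higher level. On 1426859_at the levels were 8.26, 8.14 and 8.53, then 9.42, 9.75 and 9.42, then 9.47, 9.49 and 9.68, with the same separation. That change was 1.22 ± 0.13 (SE, log2; limma adjusted p = 0.00133), or 2.33-fold. The study had picked Inhbb as a niche factor for its induction in metastasis, its independence of VEGF and its distinct expression in ECs over other stromal cells. It read induction from EC arrays of metastatic lungs and VEGF independence from arrays of the same design as these. These values are therefore not independent evidence of induction or of VEGF independence. The study also measured Inhbb by qPCR and its protein in sorted ECs.

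Inhba, the activin A subunit gene, rose on 1 of its 2 probe sets. On 1422053_at the log2 level was 6.92, 7.03 and 7.04 in healthy IgG, 8.72, 8.94 and 8.19 in metastasis IgG and 7.49, 7.67 and 7.48 in metastasis B20. The 3 groups did not overlap, and B20 stood between the others. The metastasis IgG arrays had the widest spread (SD 0.39, against 0.07 in healthy IgG and 0.11 in metastasis B20). Inhba was higher in metastasis IgG than in healthy IgG by 1.62 ± 0.17 (SE, log2; 95% interval 1.23 to 2.02; limma adjusted p = 0.00128), or 3.08-fold. The other probe set, 1458291_at, read 7.31, 7.41 and 7.07, then 7.11, 7.26 and 7.20, then 7.64, 7.14 and 7.04, so the 3 groups overlapped. Its change was -0.07 ± 0.11 (SE, log2; limma adjusted p = 0.762). With the probe sets of each gene averaged, the change of Inhba was 0.78 and still passed the test.

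Inha, the inhibin α subunit gene, was on 1 dim probe set. Its log2 level was 7.67, 7.24 and 7.80 in healthy IgG, 7.98, 7.43 and 7.76 in metastasis IgG and 7.61, 7.62 and 7.75 in metastasis B20, and all groups overlapped. The change between the IgG groups was 0.15 (95% interval -0.25 to 0.55; limma adjusted p = 0.68).

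**Figure D1:**
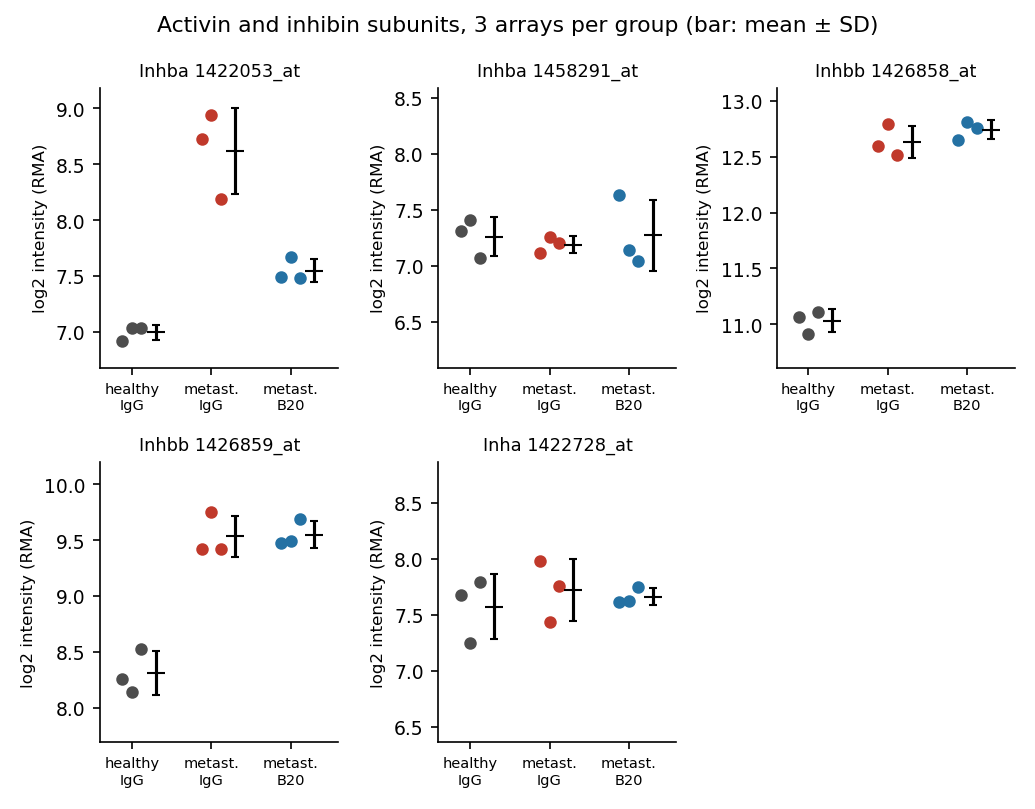
Log2 RMA intensity (y axis, a window of equal height in each panel) of the 5 subunit probe sets on each array, with points for the 3 arrays of healthy IgG, metastasis IgG and metastasis B20 and a bar for mean ± SD. Both Inhbb probe sets are high with either antibody, Inhba 1422053_at is high with IgG (8.19 to 8.94) and intermediate with B20 (7.48 to 7.67), and Inhba 1458291_at and Inha overlap in all groups.

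Follistatin and FSTL3, the extracellular antagonists of activin, both had higher means in metastasis IgG, and only Fst 1434458_at passed the test. This probe set read 6.28, 6.46 and 6.28 in healthy IgG, 6.89, 7.18 and 6.91 in metastasis IgG and 6.59, 7.04 and 6.85 in metastasis B20 on the log2 scale. Both metastasis groups lay above the healthy arrays. The change between the IgG groups was 0.65 ± 0.11 (SE, log2; limma adjusted p = 0.00925), or 1.57-fold. On the other Fst probe set, 1421365_at, the levels were 8.26, 7.86 and 8.16, then 8.39, 8.26 and 8.45, then 8.20, 8.13 and 8.33. The IgG groups did not overlap, although the lowest metastasis array and the highest healthy array both round to 8.26, and the change was 0.27 ± 0.12 (SE, log2; limma adjusted p = 0.225). Averaging both Fst probe sets gave a change of 0.46 that passed the test (limma adjusted p = 0.005). Fstl3 read 8.44, 8.57 and 8.46 in healthy IgG, 8.85, 8.79 and 8.72 in metastasis IgG and 8.48, 8.57 and 8.56 in metastasis B20. Its metastasis IgG arrays lay above the other 6, by 0.29 ± 0.08 over healthy IgG (SE, log2; limma adjusted p = 0.0778). Fstl3 passed the test under 3 of 16 alternatives (adjusted p = 0.0482 with all 9 arrays in one fit, 0.0425 without the dimmest probe sets and 0.0423 with the probe sets of each gene averaged). It passed in none of the 6 fits without a single array (limma adjusted p = 0.0939 to 0.21).

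**Figure D2:**
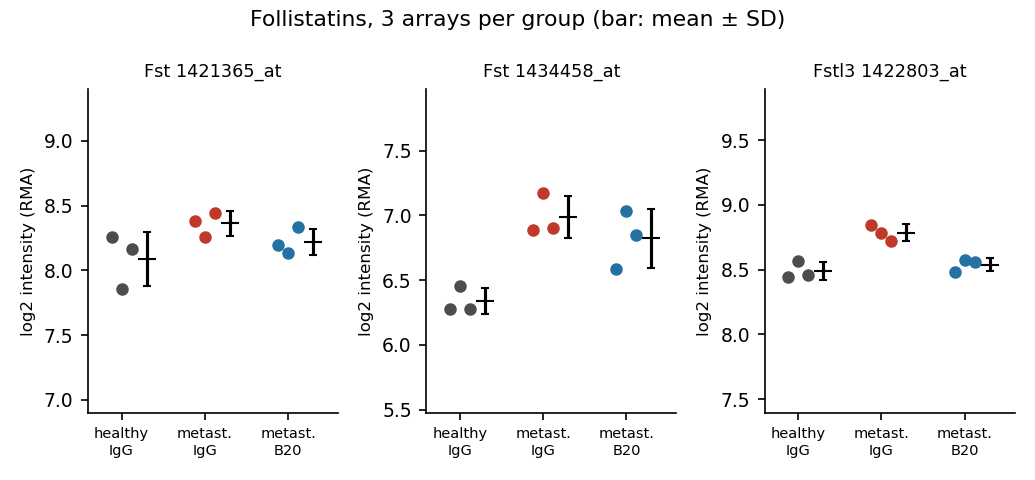
Log2 RMA intensity (y axis, equal height in each panel) of the Fst and Fstl3 probe sets on each array, with points for the 3 arrays of each group and a bar for mean ± SD. Fstl3 reads 8.72 to 8.85 in metastasis IgG and 8.44 to 8.57 in the other groups, and Fst 1434458_at lies above its healthy arrays (6.28 to 6.46) in both metastasis groups.

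None of the 10 receptor probe sets passed the test in any comparison. Acvr1b, a type I receptor of activins, read 11.22, 11.24 and 11.34 in healthy IgG, 11.46, 11.40 and 11.49 in metastasis IgG and 11.52, 11.50 and 11.59 in metastasis B20 on 1433725_at. These 3 groups did not overlap, although the steps were small, with 0.19 ± 0.08 between the IgG groups (SE, log2; limma adjusted p = 0.228). Its other probe set, 1422098_at, lay between 8.63 and 9.15 on all arrays, with overlap. Acvr1, the type I receptor with mainly SMAD1 and SMAD5 signaling, read 12.16, 12.19 and 12.12, then 11.91, 11.83 and 12.07, then 11.87, 11.98 and 12.02 on 1448460_at. Both metastasis groups lay below the healthy arrays, with a change of -0.22 ± 0.09 with IgG (SE, log2; limma adjusted p = 0.197). Acvr1 1416787_at had the same order, with 8.13, 8.80 and 8.20 in healthy IgG and 7.84 to 8.12 in metastasis, where the change with IgG was -0.39 ± 0.17 (SE, log2; limma adjusted p = 0.21). Without healthy IgG array 2, which reads 8.80, it was -0.18. The third probe set, 1416786_at, overlapped between groups (10.43 to 10.86).

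The type II receptors showed differences of the same order of size. Acvr2a 1437382_at read 11.84, 11.91 and 11.70 in healthy IgG, 11.75, 11.66 and 11.60 in metastasis IgG and 11.67, 11.62 and 11.55 in metastasis B20. The change with IgG was -0.15 (95% interval -0.36 to 0.06; limma adjusted p = 0.399), and that of 1451004_at was -0.31 (95% interval -0.60 to -0.02; limma adjusted p = 0.205). Acvr2b gave changes of -0.24 on 1439856_at, -0.19 on 1419140_at and 0.16 on the dim 1440525_at between the IgG groups. The IgG groups overlapped for all 5 type II probe sets. The 95% intervals of the 10 receptor changes in this comparison lay between -0.77 and 0.42 on the log2 scale.

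**Figure D3:**
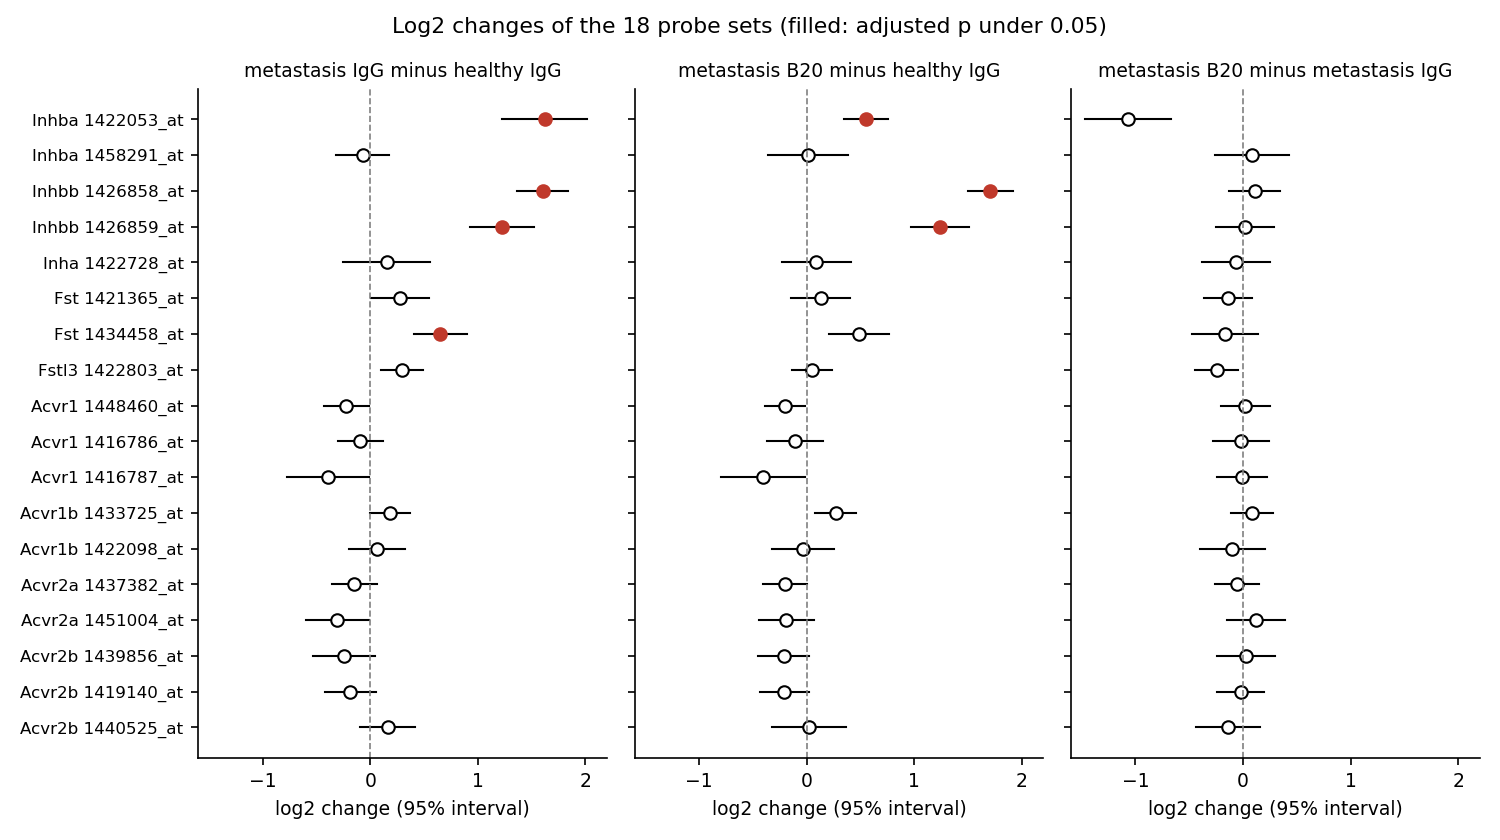
Log2 change (x axis; point, with its 95% interval as a line) of the 18 probe sets in metastasis IgG against healthy IgG, metastasis B20 against healthy IgG, and metastasis B20 against metastasis IgG, where filled points have an adjusted p under 0.05. Inhbb changes by 1.60 and 1.22 with IgG and by 0.11 and 0.02 between the antibodies, while Inhba 1422053_at changes by 1.62 with IgG and by -1.07 between the antibodies, the latter not passing the test.

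The effect of VEGF blockade was read from metastasis B20 against metastasis IgG. None of the 18 probe sets passed the test, nor did any other probe set (0% of 34945), with the lowest adjusted p of the members at 0.344. At an unadjusted p under 0.05 there were 2 of the 18, against 7.63% of all probe sets. The groups did not overlap for 3 of the 18 (Inhba 1422053_at and Fstl3 lower, Acvr1b 1433725_at higher with B20), against 12.7% of all.

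Inhba 1422053_at had the largest difference of the family under B20. Its mean was 8.62 ± 0.39 with IgG and 7.55 ± 0.11 with B20 (SD, n = 3 arrays each), a difference of -1.07 ± 0.18 (SE, log2; 95% interval -1.47 to -0.67). Its unadjusted limma p of 0.000213 ranked 17th of 34945, and the adjusted p was 0.344. Without any single array of these groups the difference lay between -1.28 and -0.91, and with both Inhba probe sets averaged it was -0.49 (limma adjusted p = 0.429). The second Inhba probe set had a difference of 0.08 (95% interval -0.26 to 0.43). Inhbb differed by 0.11 on 1426858_at (95% interval -0.13 to 0.34) and by 0.02 on 1426859_at (95% interval -0.25 to 0.29).

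Fstl3 differed by -0.24 ± 0.09 with B20 (SE, log2; limma 95% interval -0.44 to -0.05; unadjusted p = 0.0213, adjusted p = 0.568). Fst differed by -0.14 (95% interval -0.37 to 0.08) on 1421365_at and by -0.17 (95% interval -0.47 to 0.14) on 1434458_at. For the 10 receptor probe sets the differences lay between -0.14 and 0.12, and for Inha the difference was -0.06 (95% interval -0.38 to 0.25). Apart from the non-overlapping groups named above, the arrays of both antibodies overlapped for all of these.

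Metastasis B20 was also set against healthy IgG, a comparison that shares its arrays with the other 2. Of the 18 probe sets, 3 passed the test as higher, against 3.32% of all probe sets, and none as lower, against 2.09%. The groups did not overlap for 9 of the 18, of which 5 were higher and 4 lower, against 25.7% of all. Inhbb was 3.27-fold higher on 1426858_at (log2 change 1.71 ± 0.09, SE; limma adjusted p = 3.94e-05) and 2.36-fold higher on 1426859_at (log2 change 1.24 ± 0.12, SE; limma adjusted p = 0.000916). Inhba 1422053_at was 1.47-fold higher (log2 change 0.55 ± 0.09, SE; limma adjusted p = 0.011). This Inhba call was lost with all 9 arrays in one fit (adjusted p = 0.0741) and with its probe sets averaged (change 0.28, adjusted p = 0.124). Fst 1434458_at had a change of 0.49 (limma adjusted p = 0.0607) and Acvr1b 1433725_at of 0.27 (limma adjusted p = 0.105), whereas the change of Fstl3 was 0.05 (limma adjusted p = 0.81).

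The rest of the pathway was described with 6 lists of other genes, 78 of which were measured, each by its brightest probe set, over 18193 genes. Between the IgG groups, 13 of the 78 were higher and 6 lower in metastasis, against 5.55% and 3.46% of all genes. Fewer genes passed when any single array was left out. Against 19 genes passing in all, 11 passed without healthy IgG array 1, 12 without array 2, 12 without array 3, 11 without metastasis IgG array 1 and 10 without array 2. The range over all single omissions was 10 to 14. Whether the share of all genes passing fell likewise in these smaller fits was not tested. With B20 against IgG none of the 78 passed, as none of all genes did (0%), and 7 had an unadjusted limma p under 0.05, against 8.04% of all genes. With B20 against healthy IgG, 10 were higher and 5 lower, against 4.15% and 2.29% of all genes.

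Among 7 related ligands, 1 rose in metastasis IgG, where 5.55% of all genes did. This was Inhbc, which encodes the βC subunit, on a dim probe set that read 6.48, 6.53 and 6.54 in healthy IgG and 6.97, 6.90 and 6.74 in metastasis IgG (log2 change 0.35 ± 0.08, SE; limma adjusted p = 0.0387). Of 12 related receptors and co-receptors none passed. The 2 of smallest p were the TGF-β co-receptors Eng, with a log2 change of -0.28 (adjusted p = 0.0767), and Tgfbr3, with -0.29 (adjusted p = 0.0832). Of 13 further extracellular antagonists, 1 rose, against 5.55% of all genes. It was Bmper, which encodes a secreted modulator of bone morphogenetic proteins (log2 change 0.83 ± 0.18, SE; limma adjusted p = 0.028).

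Of 18 intracellular signal carriers and modulators, 3 rose and 3 fell, against 5.55% and 3.46% of all genes. Smad1, a carrier of bone morphogenetic protein signals, read 12.36, 12.30 and 12.40 in healthy IgG, 13.00, 13.10 and 13.00 in metastasis IgG and 13.03, 13.06 and 13.09 in metastasis B20, with no overlap between health and metastasis. Its change with IgG was 0.68 ± 0.08 (SE, log2), and its other probe sets gave 0.41 and 1.38. The closely related Smad5 changed by 0.42 ± 0.08, and its other probe sets gave 0.13 and 0.46. Smad2, which carries activin signals, rose by 0.34 ± 0.08 on its brightest probe set, whereas its other probe set gave -0.17. Smurf2, a ubiquitin ligase that limits SMAD signaling, fell by 0.38 on the log2 scale. Of 8 genes of subunit processing and secretion, 1 fell, against 3.46% of all genes. It was Pcsk5, a proprotein convertase, which fell by 0.66 on the log2 scale.

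Of 20 SMAD2/3 target genes, 8 were higher and 2 lower, against 5.55% and 3.46% of all genes, and 10 did not pass. The median change of the list was 0.22 on the log2 scale, beside a median of 0.00 over all genes. The 2 lower genes were Cdkn2b, at -1.04 ± 0.13 (SE, log2; limma adjusted p = 0.0024), and Ltbp1, at -0.59 ± 0.08 (limma adjusted p = 0.0025). With B20 against healthy IgG, Cdkn2b changed by -1.04 and passed, and Ltbp1 by -0.29 and did not. The 4 largest changes were increases of matrix genes. Tgfbi, a secreted matrix protein gene, read 8.44, 8.97 and 8.83 in healthy IgG, 11.55, 11.75 and 11.06 in metastasis IgG and 11.47, 11.75 and 11.51 in metastasis B20. Its change with IgG was 2.71 ± 0.19 (SE, log2), and its 3 other probe sets gave 0.77 to 2.34. Fibronectin (Fn1) rose by 1.70 ± 0.16, whereas its other probe set gave 0.27. The type I collagen genes Col1a1 and Col1a2 rose by 1.48 ± 0.14 and 1.44 ± 0.20, and the other Col1a2 probe sets gave -0.26 and 2.01. Col1a1 and Col1a2 also belong to the fibroblast list, of which 3 of 13 genes were higher and 1 lower, against 5.55% and 3.46% of all genes. Between B20 and IgG these 4 genes differed by 0.12 for Tgfbi, -0.23 for Fn1, -0.16 for Col1a1 and -0.19 for Col1a2 on the log2 scale, and none passed the test.

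**Figure D4:**
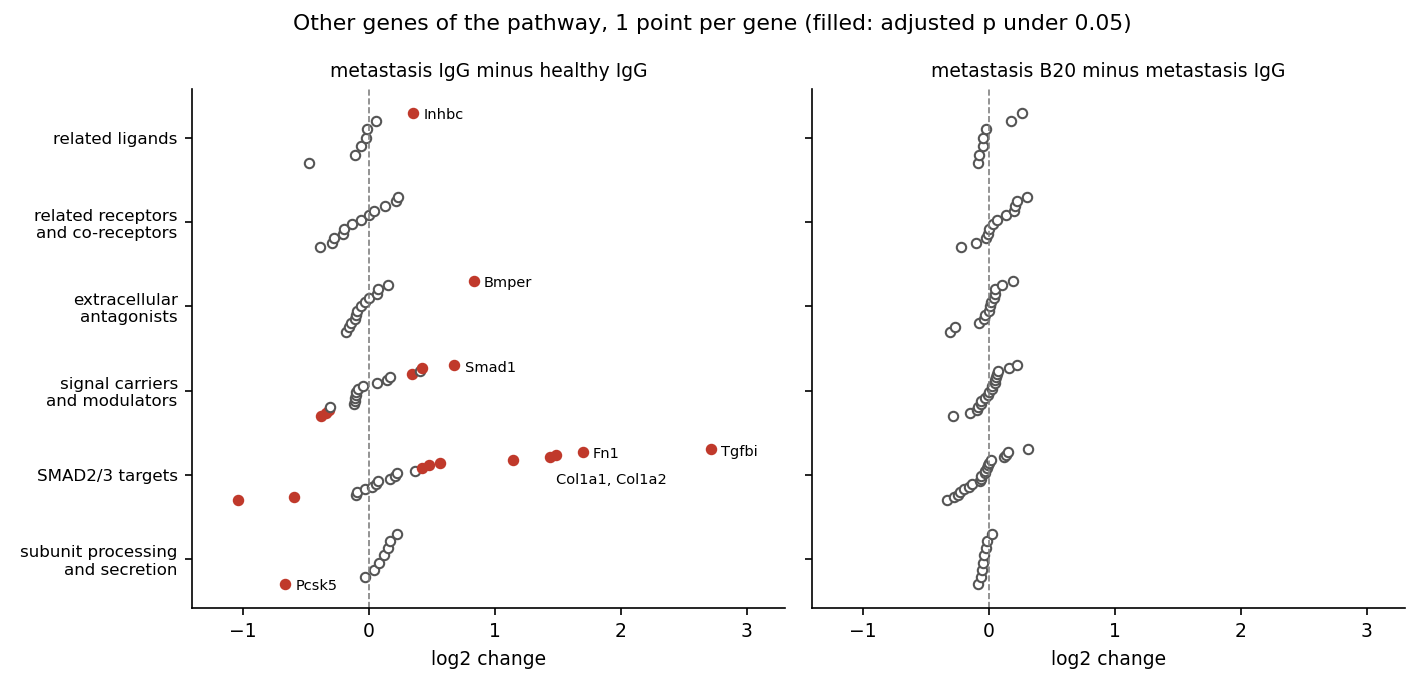
Log2 change (x axis) of the 78 other pathway genes by list (y axis, spread within a list by rank) in metastasis IgG against healthy IgG and in metastasis B20 against metastasis IgG, 1 point per gene, with filled points for an adjusted p under 0.05. In the first panel 19 genes are filled, 10 of them SMAD2/3 target genes, with Tgfbi at 2.71. In the second none is.

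Genes with the pattern most like Inhbb and Inhba were found as those with the smallest root mean square difference of log2 levels over the 9 arrays, after each profile was centred on its own mean. For Inhbb, among 18184 genes, they were Ifit3 (0.0933), Slc4a1 (0.0998), Sting1 (0.105), Cfb (0.123) and Slfn2 (0.131), where the median over all genes was 0.80. Ifit3 is an interferon-induced gene, Sting1 encodes an adaptor of the cytosolic DNA pathway and Cfb encodes complement factor B. Slc4a1 encodes the anion exchanger of red blood cells, and its 2 other probe sets gave changes of 0.01 and 0.24 between the IgG groups, against 1.77 on the one used. For Inhba they were Iqgap3 (0.186), Dscc1 (0.225), Uhrf1 (0.228), Kif2c (0.229) and Cks1b (0.230), where the median over all genes was 0.713. Dscc1, Uhrf1, Kif2c and Cks1b are known from DNA replication, its methylation upkeep, chromosome segregation and the cell cycle. Their changes over healthy IgG were 1.24 to 1.83 with IgG and 0.64 to 1.00 with B20 for these 4, and 1.35 and 0.58 for Iqgap3. On their other probe sets the change with IgG was 0.12 for Iqgap3, -0.03 for Dscc1 and 0.17 to 0.44 for Kif2c, but 2.11 for Uhrf1 and 1.16 for Cks1b. All points of a profile share the 9 arrays and the pattern is a description.

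**Figure D5:**
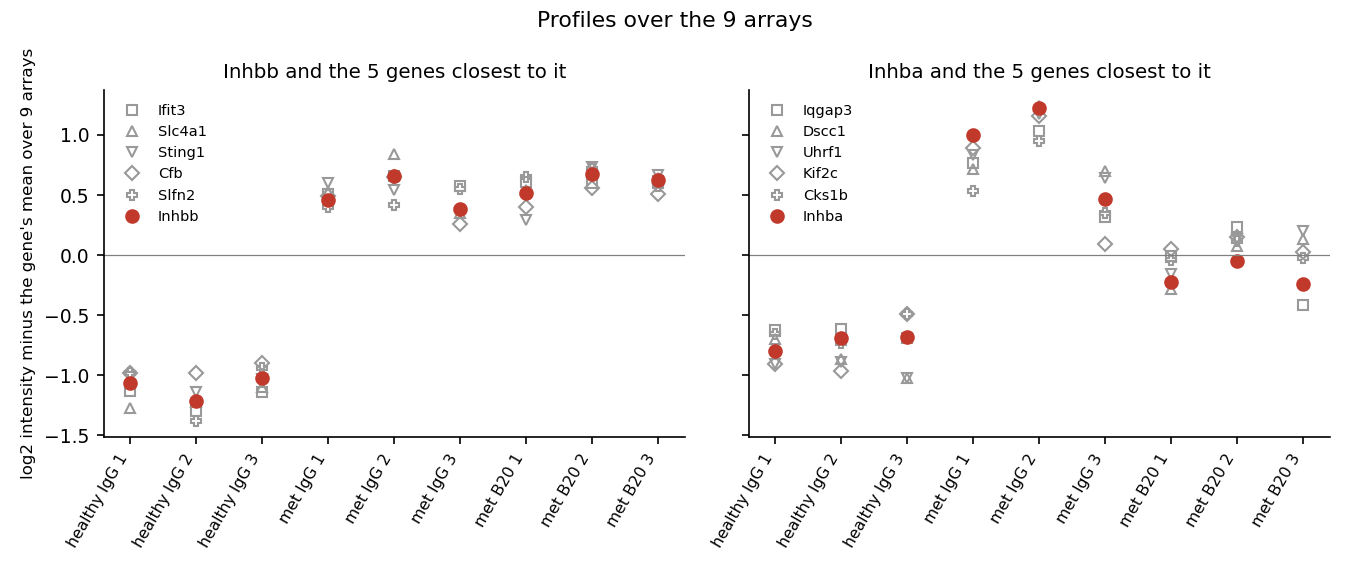
Log2 intensity minus the gene's own mean over the 9 arrays (y axis) on each array (x axis) for Inhbb and Inhba (filled) and the 5 genes closest to each (open symbols). The Inhbb set is at one height in both metastasis groups, while the Inhba set is highest in metastasis IgG and intermediate in metastasis B20.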

How the data were processed

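Gene expression of FACS-sorted lung ECs was measured on Affymetrix GeneChip mouse genome arrays, 3 for each of 3 groups. The deposited values are log2 intensities that the authors obtained by robust multiarray average (RMA) normalization in Chipster, which corrects the background, equalizes the distribution of all arrays and summarizes probes. RMA removes any shift common to most genes and compresses changes of dim probe sets. Probe sets are named by the platform annotation: 34958 of 45101 named 1 gene, 932 several and 9211 none, and 34945 were tested after the array's control probe sets, 13 of which named 1 gene, were left out. The number of arrays limits the precision.

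Each pair of groups was fitted on its own 6 arrays in limma 3.58.1 (R 4.3.3), two-sided, with Benjamini-Hochberg adjustment over all probe sets, or over 18193 genes (brightest probe set by mean of 9 arrays) for the other pathway and marker lists. Calls are at an adjusted p under 0.05, and ± is the SE of a log2 difference or, where stated, the SD. The labels call arrays biological replicates and do not say whether each is 1 mouse, while the study gives 3 mice per group for this design. The p-values weigh a difference of means against the spread between these arrays, moderated over all probe sets. The fit was tested on simulated data. The members and lists were chosen with earlier results of these data known. All member probe sets are named. Of each other pathway list, up to 4 called genes of largest change between the IgG groups are named, or the 2 of smallest p where none was called, and 5 genes of closest profile for Inhbb and Inhba. The 2 SMAD2/3 target genes that were lower are also named. Marker lists gave, between the IgG groups, 1 pan-endothelial, 13 macrophage, 3 fibroblast, 2 pericyte, 3 epithelial and 1 mesothelial gene higher, and 1 fibroblast and 1 mesothelial gene lower. Of all genes, 5.55% were higher and 3.46% lower. Alternatives were 1 fit of all arrays, a replicate block, a filter on dim probe sets, 1 probe set or the mean per gene, no probe sets with a suffix, median centring, a second quantile normalization, trend and robust estimation, array weights, the study's thresholds and leaving out each array. Promoters are from RefSeq, and figures were drawn with matplotlib 3.10.9.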

Additional observations from a re-analysis of the deposited data

How the results depend on the processing

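The 4 member probe sets higher in metastasis IgG than in healthy IgG passed under every alternative fit in which they were tested, and their count was 4 without any single array. At the study's thresholds, a log2 change over 0.75 among them, 3 passed, and Fst 1434458_at did not. With 1 probe set per gene, which leaves out the second probe set of Inhbb and the Fst probe set that passed, 2 genes passed. In metastasis B20 against metastasis IgG no member and no pathway gene passed under any alternative. In metastasis B20 against healthy IgG, 3 member probe sets became 1 with the probe sets of a gene averaged and 5 with trend and robust estimation, where Fst 1434458_at (adjusted p = 0.0339) and Acvr1b 1433725_at (adjusted p = 0.0263) were added, and 3 to 4 without single arrays. Of the other pathway genes, 19 in metastasis IgG against healthy IgG became 7 with the study's thresholds, which ask for a larger change, and 10 to 14 without single arrays. With B20 against healthy IgG, 15 became 6 with the study's thresholds and 12 to 13 without single arrays. Same-numbered arrays did not deviate together (correlations of deviations -0.0739 to 0.0371), so the numbers were not taken as pairs. With the replicate number as a block, 11 pathway genes passed between the IgG groups, and 4, 0 and 3 member probe sets passed in metastasis IgG against healthy IgG, B20 against IgG and B20 against healthy IgG. The causes of these differences were not tested, other than where stated. Changes of sign were seen only in values near 0 that passed no test. Averaging probe sets gave, for B20 against IgG, -0.0027 for Acvr1, -0.0081 for Acvr1b, 0.031 for Acvr2a and -0.044 for Acvr2b. Leaving out single arrays gave, for metastasis IgG against healthy IgG, -0.024 to 0.14 for Acvr1b 1422098_at, -0.17 to 0.0020 for Inhba 1458291_at and -0.011 to 0.30 for Inha. For B20 against IgG it gave -0.051 to 0.13 for Inhbb 1426859_at, -0.21 to 0.067 for Inha, -0.10 to 0.088, -0.087 to 0.052 and -0.032 to 0.087 for Acvr1 1416786_at, 1416787_at and 1448460_at, -0.064 to 0.14 and -0.078 to 0.027 for Acvr2b 1439856_at and 1419140_at, -0.10 to 0.20 for Inhba 1458291_at and -0.17 to 0.024 for Acvr1b 1422098_at. For B20 against healthy IgG it gave -0.074 to 0.20 for Inha, -0.13 to 0.14 for Acvr2b 1440525_at, -0.17 to 0.13 for Inhba 1458291_at and -0.11 to 0.087 for Acvr1b 1422098_at. Both Inhba probe sets are among the dimmest 40%, where signal over background limits the size of a change.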
